A study of Homo sapiens
Mus musculus with 2 samples.

Results

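Electroneutral salt absorption by the colon rests on exchangers that trade luminal sodium for protons and luminal chloride for bicarbonate. Carbonic anhydrases, which interconvert carbon dioxide and bicarbonate, supply the ions that are exchanged. Colonocytes, the absorptive cells of the surface and upper crypt, are the cells best known for this transport. The genes described here are 8 of the 25504 listed in both count tables, chosen by name: the sodium-proton exchangers Slc9a2 and Slc9a3, the anion exchangers Slc26a3 and Slc26a2, the sodium-bicarbonate cotransporter Slc4a4, and the carbonic anhydrases Car1, Car2 and Car4. All 8 were found in both tables.

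The cells came from the colonic epithelium of 1 untreated wild-type (WT) C57Bl6 mouse, profiled as 2 droplet libraries of different cells, called replicates 1 and 2. Both libraries also received cells of K562, a human leukaemia line, which were not analysed here. There is 1 group, so comparisons were made between cell classes of the same libraries. Except where the library term was left out, the shift shared by all classes of a library is removed before testing. The p-values then cover only how far class differences vary between 2 libraries of 1 animal, which may be technical. Age and sex were not given in the sources used here.

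Replicate 1 held 1738 barcodes and 8602490 UMIs (unique molecular identifiers, 1 for each captured transcript), and replicate 2 held 664 barcodes and 3951918 UMIs. No barcode had the same counts over all genes in both libraries. Of the 2402 barcodes, 120 were left out as likely doublets, and the other 2282 fell into 10 clusters, of which 7 could be named from markers. Colonocyte-like cells were clusters 8 and 4 and made up 381 cells of replicate 1 and 115 of replicate 2. Median UMIs per colonocyte-like cell were 6034 in replicate 1 and 6817 in replicate 2, and the median mitochondrial share was 5.48% in replicate 1 and 11.6% in replicate 2. All 9 colonocyte markers had UMIs in these cells of both libraries, as also in goblet-like, deep crypt secretory-like and stem/cycling cells. Their summed level was 37574.9 and 30754.3 UMIs per 1e6 UMIs (CPM), against 1322 to 9301 CPM in those other classes. The same markers were used to name the clusters, so this difference is no independent test of the name. The 8 genes took no part in the clustering.

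The members were captured at very different depths. UMIs in replicates 1 and 2 were 9100 and 3550 for Car4, 7640 and 2852 for Slc26a3, 6949 and 2694 for Slc26a2, 3643 and 1651 for Car2, and 3602 and 1040 for Car1. Slc9a2 had 1586 and 554 UMIs, Slc4a4 had 93 and 50, and Slc9a3 had only 18 and 5. Statements on Slc4a4 and Slc9a3 therefore rest on few molecules. Totals of different genes are not a ranking of transcript abundance, because capture was not calibrated between genes.

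**Figure D1:**
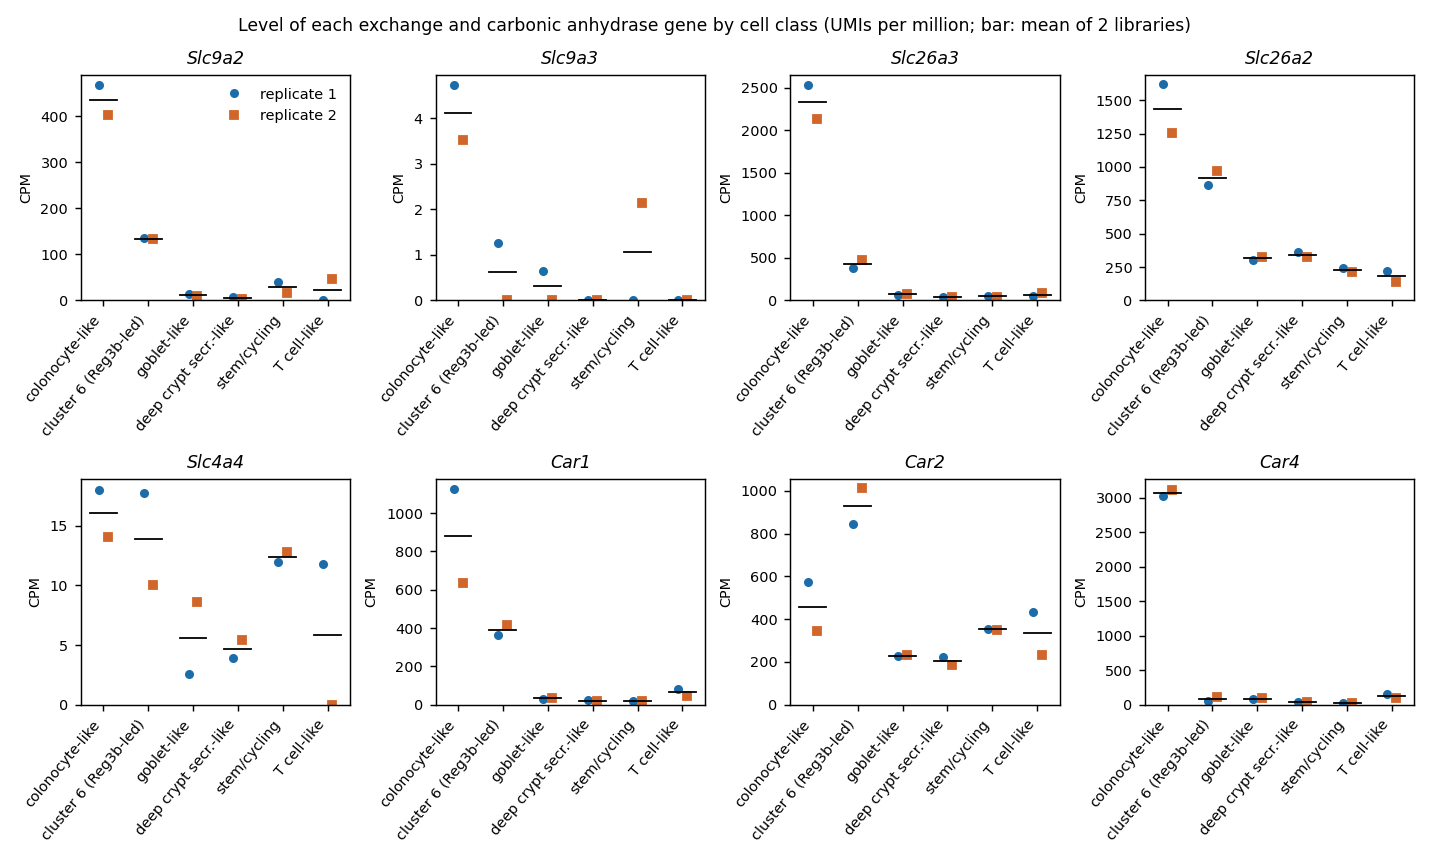
Level of each gene (CPM, linear axis from 0) in 4 epithelial classes, the unnamed cluster 6 and T cell-like cells; circles are replicate 1, squares replicate 2 and bars the mean of 2 libraries. Car4 lies at 3032 and 3120.5 CPM in colonocyte-like cells and at most at 153 CPM in the other groups shown, while Car2 peaks in cluster 6 at 844.5 and 1014 CPM.

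Across the 4 epithelial classes with at least 10 cells in each library, colonocyte-like cells had more of 7 of 8 members than the mean of goblet-like, deep crypt secretory-like and stem/cycling cells. In this contrast 21.3% of the 7689 genes tested were higher and 20.1% were lower. The size of the difference separated the members. A group of 4, Car4, Slc26a3, Car1 and Slc9a2, ranked between 3 and 19 from the top of the 7689 genes, whereas Slc26a2 ranked 231, Slc4a4 495 and Car2 1005. Slc9a3 had fewer than 20 UMIs over the summed classes and was not tested.

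Slc9a2, an apical sodium-proton exchanger, reached 467 and 401 CPM in colonocyte-like cells of replicates 1 and 2. Its levels were 40.9 and 17.1 CPM in stem/cycling cells, 13.7 and 8.61 CPM in goblet-like cells, and 7.16 and 3.60 CPM in deep crypt secretory-like cells. The colonocyte-like libraries did not overlap any of these, and the log2 fold change was 5.43 ± 0.17 (SE; edgeR quasi-likelihood, Benjamini-Hochberg adjusted p = 7.1e-51). In T cell-like cells Slc9a2 had 0 and 46.6 CPM, the latter from 1 UMI.

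Slc9a3, the exchanger known as the main apical route of electroneutral sodium uptake in small intestine and proximal colon, was nearly undetected. Colonocyte-like cells held 11 of its 18 UMIs in replicate 1 and 3 of its 5 UMIs in replicate 2, which is 4.72 and 3.52 CPM. Summed over both libraries, 14 UMIs in colonocyte-like cells stood against 2 in the 3 other classes, a ratio of UMIs per UMI total of 12.5 (exact 95% interval 2.87 to 113, counting error only). After thinning every cell to 2000 UMIs, Slc9a3 was seen in 0.829% and 1.82% of colonocyte-like cells.

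Slc26a3, the apical chloride-bicarbonate exchanger whose loss causes congenital chloride diarrhoea in people, had 2530.3 and 2133 CPM in colonocyte-like cells. The 3 other classes lay between 37.1 and 80.9 CPM, and T cell-like cells at 47.1 and 93.1 CPM on only 4 and 2 UMIs. The log2 fold change was 5.87 ± 0.12 (SE; edgeR adjusted p = 1.02e-66). At 2000 UMIs per cell, 95.6% of 362 and 92.7% of 110 colonocyte-like cells had at least 1 Slc26a3 UMI, the highest share of any member.

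Slc26a2, a sulfate and anion exchanger, was spread more widely. It measured 1618 and 1250.5 CPM in colonocyte-like cells, against 364 and 324 CPM in deep crypt secretory-like cells, 306.5 and 325 CPM in goblet-like cells, and 241 and 211 CPM in stem/cycling cells. Deep crypt secretory-like and goblet-like levels overlapped each other and lay above the 224 and 140 CPM of T cell-like cells. Stem/cycling levels overlapped those of T cell-like cells, which rested on only 19 and 3 UMIs. The log2 fold change in colonocyte-like cells was 2.64 ± 0.11 (SE; edgeR adjusted p = 2.82e-41).

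Slc4a4, the electrogenic sodium-bicarbonate cotransporter known from the basolateral membrane, was low in every class. It had 18.0 and 14.1 CPM in colonocyte-like cells, with 12.0 and 12.8 CPM in stem/cycling cells as the nearest class. Goblet-like cells had 2.61 and 8.61 CPM and deep crypt secretory-like cells 3.90 and 5.40 CPM. The colonocyte-like range did not overlap these, and the log2 fold change of 1.77 ± 0.36 (SE; edgeR adjusted p = 1.92e-05) rested on 54 UMIs in colonocyte-like cells and 36 in the other classes together.

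The 3 carbonic anhydrases differed most among themselves. Car4, the form anchored at the outer face of the apical membrane, had 3032 and 3120.5 CPM in colonocyte-like cells, and the other epithelial classes lay between 27.8 and 93.0 CPM. Its log2 fold change of 6.44 ± 0.12 (SE; edgeR adjusted p = 7.59e-71) was the largest of the members.

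Car1, a cytosolic form, had 1124 and 636 CPM in colonocyte-like cells, against 18.0 to 37.9 CPM in the other 3 classes. The log2 fold change was 5.56 ± 0.15 (SE; edgeR adjusted p = 3.24e-57). Car1 is also a red-cell gene, and of 6 red-cell markers 5 in replicate 1 and 3 in replicate 2 had UMIs in colonocyte-like cells, with a summed level of 9.02 and 16.4 CPM and Hbb-bt at 0 in both. The part of red-cell RNA in the Car1 level was not tested.

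Car2, the other cytosolic form, had 571 and 345 CPM in colonocyte-like cells and 355 and 350 CPM in stem/cycling cells, so the CPM ranges overlapped. Goblet-like cells had 227 and 231 CPM and deep crypt secretory-like cells 223 and 186 CPM. The fitted log2 fold change, which carries TMM scaling, was 1.19 ± 0.12 (SE; edgeR adjusted p = 1.6e-14), the smallest of the members. T cell-like cells, at 435 and 233 CPM, overlapped the colonocyte-like and stem/cycling ranges.

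**Figure D2:**
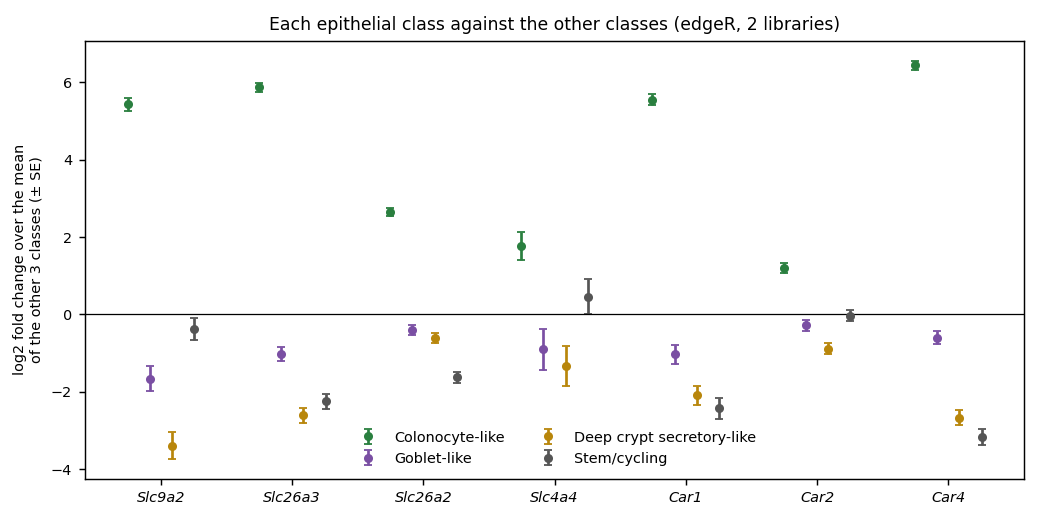
Fitted log2 fold change of the 7 tested genes in each epithelial class over the mean of the other 3 classes; points are edgeR estimates and bars are ± 1 SE. Colonocyte-like estimates lie between 1.19 for Car2 and 6.44 for Car4, all above 0, and no estimate of another class passed the test above 0.

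In deep crypt secretory-like cells, the secretory cells of the colonic crypt base, 6 of 7 tested members were lower than the mean of the other classes, where 8.7% of all genes were lower. The exception was Slc4a4 (log2 -1.32 ± 0.52, edgeR adjusted p = 0.0571), which passed under 5 alternatives (adjusted p 0.00541 to 0.0469). The Slc26a2 call was lost without the library term (edgeR adjusted p = 0.136) and at clustering resolution 2 (0.517). In goblet-like cells 5 of 7 were lower against 6.84% of all genes, with Slc9a2 at log2 -1.66 ± 0.33 and Slc26a2 at -0.39 ± 0.13. That count was 2 without the library term, at clustering resolution 2, and with likely doublets kept, where Car4 was higher (log2 0.37). In stem/cycling cells 4 of 7 were lower against 14.4% of all genes, and Car2 was at -0.03 ± 0.14 (edgeR adjusted p = 0.9). At a clustering resolution of 0.5 the stem/cycling result was 1 member lower and 3 higher, and with cluster 6 as a further class, an alternative chosen after seeing the data, it was 6 lower (11.7% of all genes). Slc9a2 was lower at resolution 2 (log2 -1.44) and against all other epithelial cells summed (-2.87), and Car2 was lower at resolution 2 (-0.94). Each of these contrasts has colonocyte-like cells in its comparator.

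Free RNA in droplets gives UMIs in cells that do not express a gene, and T cell-like cells served as the gauge. Before thinning, with median depths of 1663.5 and 2141 UMIs per T cell-like cell, 42% and 50% of them had a Car2 UMI, 28% and 30% an Slc26a2 UMI, 18% and 10% a Car4 UMI, and 6% and 20% an Slc26a3 UMI. Only 10 and 7 T cell-like cells reached 2000 UMIs, and 60% (exact 95% interval 26.2% to 87.8%) and 42.9% (9.90% to 81.6%) of those had Car2. Thinned Car2 shares were 56.9% and 39.1% in colonocyte-like cells, 31.5% and 22.1% in goblet-like cells, 27.1% and 20.5% in deep crypt secretory-like cells, and 43.6% and 37.7% in stem/cycling cells. None of these 4 classes exceeded the T cell-like share of the same library, so the Car2 shares are not read as expression. In CPM, Car2 was higher in colonocyte-like than in T cell-like cells of the same library, at 571 against 435 and at 345 against 233. Those T cell-like values rested on only 37 and 5 UMIs. Thinned Car4 shares were 13.1% and 13.2% in goblet-like cells, against 3 of 10 T cell-like cells of replicate 1 and 0 of 7 of replicate 2, which allows a share of up to 42.9%. The T cell-like Car4 CPM rested on 13 and 2 UMIs, so at this depth Car4 outside the colonocyte-like class could not be set against it firmly. Whether T cell-like cells carry Car2 transcripts of their own was not tested.

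**Figure D3:**
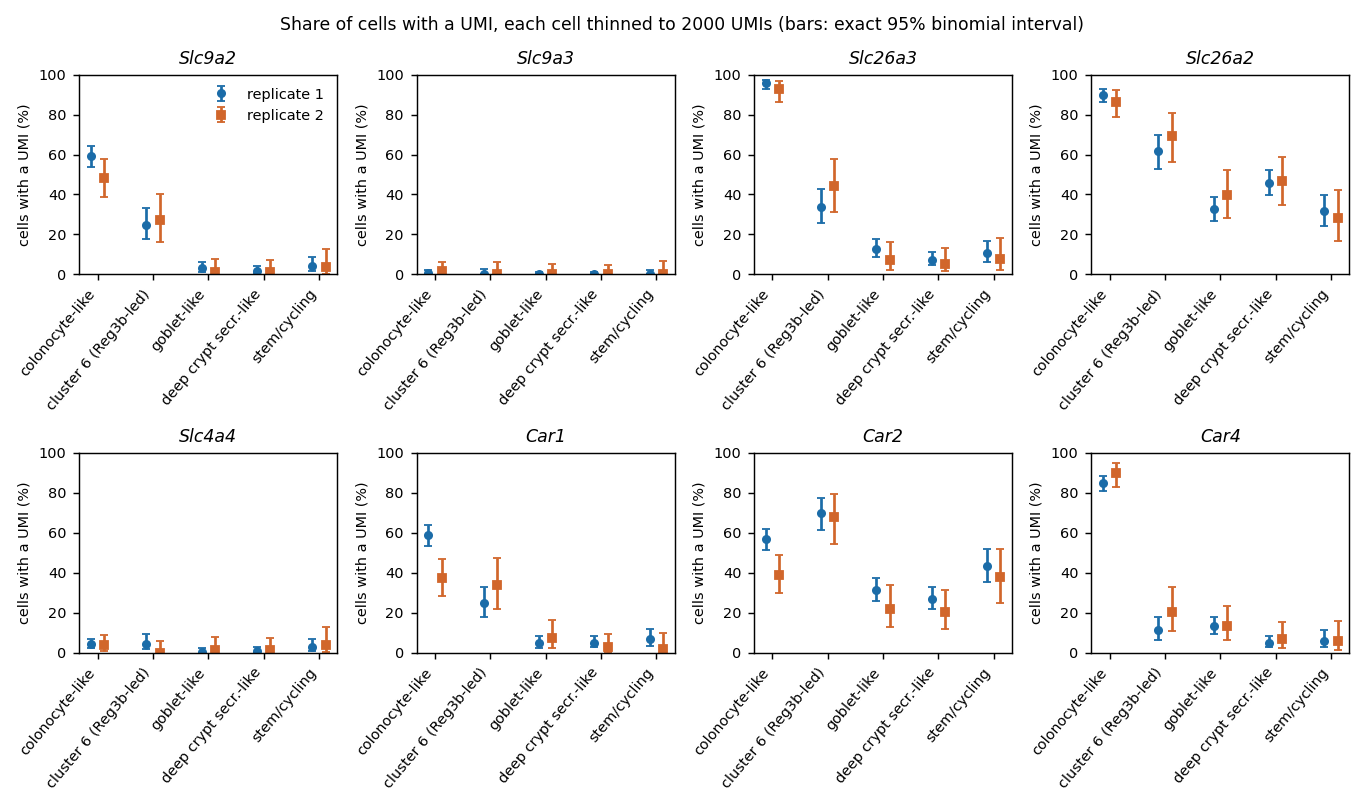
Share of cells with at least 1 UMI of each gene after thinning each cell to 2000 UMIs; points are single libraries and bars exact 95% binomial intervals, which cover counting error only. Slc26a3 was seen in 95.6% and 92.7% of colonocyte-like cells, and Slc9a3 in 0.829% and 1.82%.

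In thinned colonocyte-like cells the shares fell into 3 steps. Slc26a3, Slc26a2 (89.8% and 86.4%) and Car4 (85.1% and 90%) were seen in most cells. Slc9a2 (59.1% and 48.2%), Car1 (58.8% and 37.3%) and Car2 (56.9% and 39.1%) were seen in an intermediate share, and Slc4a4 (4.42% and 3.64%) and Slc9a3 in few. The Car2 shares, which did not exceed those of T cell-like cells, describe detection only. The unthinned shares were 98.7% and 97.4% for Slc26a3, 86.6% and 78.3% for Slc9a2, 74.5% and 60% for Car1, and 80.3% and 61.7% for Car2. Shares of Car1 and Car2 were lower in replicate 2, as were their CPM, while the Car4 share was higher there. Replicate 2 also had the higher mitochondrial share, and its part in these library differences was not tested.

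Car4 and Car1 were unevenly spread over colonocyte-like cells. The variance over the mean of thinned UMIs per cell, which is 1 for pure counting noise, was 6.17 and 4.63 for Car4 and 5.38 and 2.70 for Car1 in replicates 1 and 2. The median over readout genes of at least 0.5 UMI per cell was 1.26 (332 genes) and 1.31 (302 genes), with a 90th percentile of 2.35 and 2.42. These genes were not matched on level to the members, and mean thinned UMIs per cell were 6.28 and 6.63 for Car4. The part of level in the excess over that percentile was not tested. Slc26a3 at 2.33 and 2.30 and Slc26a2 at 2.18 and 2.03 lay below the 90th percentile, as did Car2 at 1.81 and 1.52 and Slc9a2 at 1.28 and 1.22. Per thinned cell, Car4 ran between 0 and 34 UMIs in replicate 1 and between 0 and 33 in replicate 2, with medians of 5 and 6. Car1 had a median of 1 and a maximum of 27 UMIs in replicate 1, and a median of 0 and a maximum of 7 in replicate 2.

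The uneven spread of Car4 followed a score of cell maturity. Each colonocyte-like cell was scored by 10 genes known from the surface minus 8 genes known from the crypt, all from among the clustering genes, and the cells of each library were divided into a lower, a middle and an upper tertile. Car4, Slc26a3, Slc9a2 and Car1 were higher in the upper than in the lower tertile and Car2 was lower. In this contrast 2.07% of 4841 genes tested were higher and 1.9% were lower.

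Car4 had 1235, 3049 and 4590 CPM in the lower, middle and upper tertile of replicate 1 and 2133, 3217 and 4018.5 CPM in replicate 2. Both libraries rose at each step, and the upper tertiles lay above both lower tertiles. The log2 fold change of upper over lower tertile was 1.49 ± 0.15 (SE; edgeR adjusted p = 7.44e-09). Across single cells, the Pearson r of Car4 with the score was 0.58 over 362 cells and 0.42 over 110 cells, a description only, since cells share library, depth and droplet background.

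Slc26a3 had 1631, 2576 and 3274 CPM along the tertiles of replicate 1 and 1737.5, 2104 and 2555 CPM along those of replicate 2, again rising at each step in both, with no overlap of upper and lower tertiles. Its log2 fold change was 0.87 ± 0.13 (SE; edgeR adjusted p = 1.06e-05). Slc9a2 had 346, 479.5 and 560 CPM in replicate 1 and 323, 383 and 496 CPM in replicate 2, likewise without overlap, and its log2 fold change was 0.75 ± 0.16 (SE; edgeR adjusted p = 0.00263). The Slc9a2 call was lost with sums thinned to the smallest sum (log2 0.63, edgeR adjusted p = 0.0540).

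The cytosolic anhydrases moved less evenly. Car1 had 921, 1052 and 1372 CPM in replicate 1 but 609, 505 and 785 CPM in replicate 2, and its log2 fold change of 0.57 ± 0.14 (SE; edgeR adjusted p = 0.0126) was the smallest of the 4 that rose. Upper and lower tertiles of Car1 overlapped between the libraries. Car2 had 781, 562.5 and 396 CPM in replicate 1 and 399, 309.5 and 324 CPM in replicate 2, with a log2 fold change of -0.63 ± 0.17 (SE; edgeR adjusted p = 0.0200). The Car2 tertiles did not overlap, but only by the narrow gap between 396 CPM in the upper tertile of replicate 1 and 399 CPM in the lower tertile of replicate 2. The Car2 call was lost with DESeq2, with thinned sums and with a split at the median score in place of tertiles, and the Car1 call when barcodes above 10% mitochondrial UMIs were left out.

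Slc26a2 ran in opposite directions in the libraries, with 1431, 1616 and 1782.5 CPM in replicate 1 and 1331.5, 1264 and 1157 CPM in replicate 2, and did not pass the test (log2 0.16 ± 0.14, edgeR adjusted p = 0.687). Slc4a4 had 22.3, 21.4 and 11 CPM in replicate 1 and 17.2, 18.4 and 6.89 CPM in replicate 2. The upper tertiles were the lowest in both libraries, but the difference did not pass (log2 -0.98 ± 0.57, edgeR adjusted p = 0.492). Of the Slc9a3 UMIs, 0, 2 and 9 fell into the lower, middle and upper tertile of replicate 1 and 0, 0 and 3 into those of replicate 2.

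**Figure D4:**
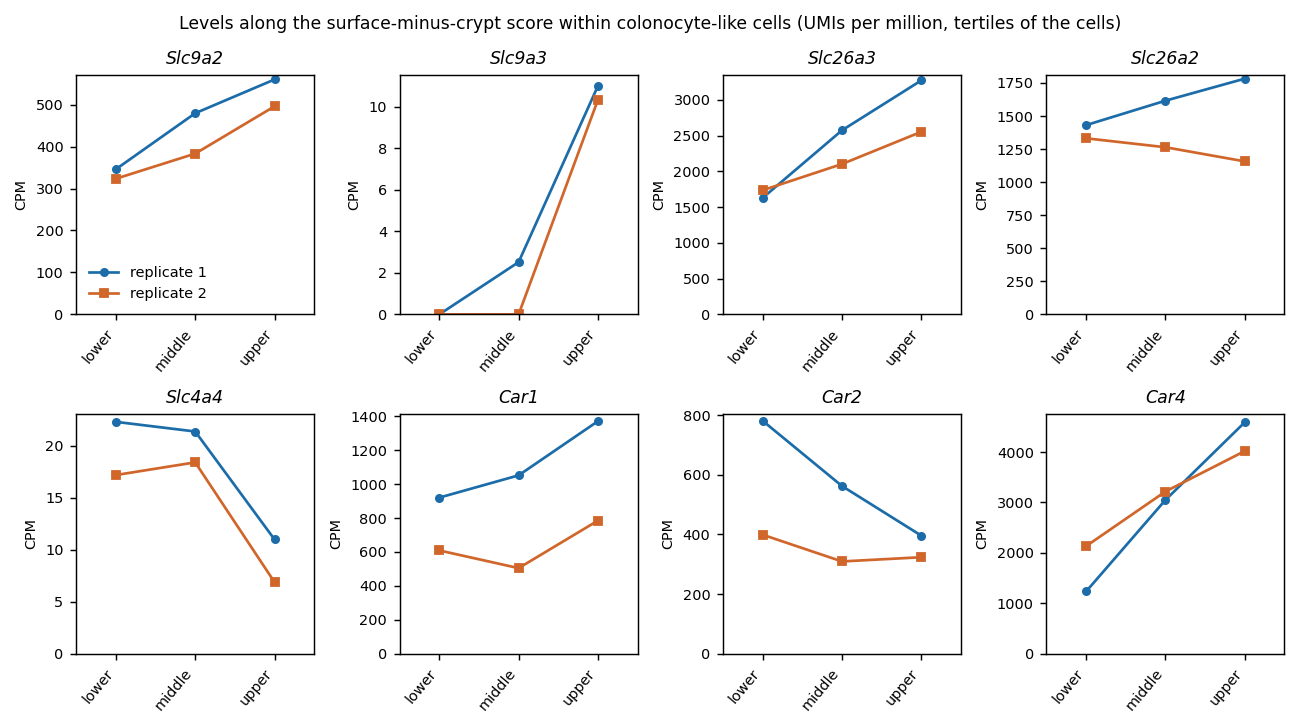
Level of each gene (CPM, linear axis from 0) in the lower, middle and upper tertile of colonocyte-like cells by the surface-minus-crypt score, with 1 line for each library. Car4, Slc26a3 and Slc9a2 rise at each step in both libraries, and Car2 is highest in the lower tertile of both.

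The tertiles differed in cluster makeup. The upper tertile held 77 cells of cluster 8 and 50 of cluster 4 in replicate 1 and 22 and 16 in replicate 2, while the lower tertile held 25 and 102 in replicate 1 and 9 and 30 in replicate 2. Tertiles were therefore also taken within each cluster, an alternative chosen after seeing the data. Car4 was higher in the upper tertile within cluster 4 (log2 1.63 ± 0.17, edgeR adjusted p = 1.1e-11, with 1.58% of all genes higher) and within cluster 8 (1.35 ± 0.16, edgeR adjusted p = 1.03e-14, with 1.62% higher). Slc26a3 also passed in both, at 1.05 ± 0.16 and 0.75 ± 0.16, and Slc9a2 passed within cluster 4 at 0.76 ± 0.22 and not within cluster 8 at 0.59 ± 0.22. Car1 passed in neither, at 0.33 ± 0.22 within cluster 4 and 0.14 ± 0.18 within cluster 8, and neither did Car2, at -0.63 ± 0.20 and -0.57 ± 0.24. Without the library term no member passed between the upper and lower tertiles of the whole class (Car4 edgeR adjusted p = 0.0692).

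Between the colonocyte-like clusters themselves, Car1 had the clearest difference by p-value, and Slc4a4 the larger estimate on far fewer UMIs. Cluster 8 was led by Emp1, Aqp8 and Guca2a and had a median of 7583 UMIs per cell, and cluster 4 was led by Fabp6, Slc37a2 and Clca4b with 5309 UMIs per cell. Car1 had 1635 and 954 CPM in cluster 8, against 694.5 and 383 CPM in cluster 4. The clusters did not overlap, and the difference was log2 1.23 ± 0.12 (SE; edgeR adjusted p = 1.53e-22). In this contrast 2.93% of 4841 genes were higher and 3.04% lower.

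Slc9a2 had 538 and 506 CPM in cluster 8, against 407 and 318 CPM in cluster 4, at log2 0.46 ± 0.12 (SE; edgeR adjusted p = 0.0055). Slc4a4 had 9.40 and 5.30 CPM (10 and 2 UMIs) in cluster 8, against 25.3 and 21.1 CPM (32 and 10 UMIs) in cluster 4. Its estimate was log2 -1.58 ± 0.50 (SE, edgeR adjusted p = 0.0322). Without the UMIs of cluster 4, Slc4a4 would not have met the filter on low counts, so this p-value is not read as a test. Neither gene's cluster ranges overlapped. The remaining 4 tested members did not pass, with estimates of 0.16 ± 0.12 for Slc26a3, 0.07 ± 0.12 for Car4, -0.14 ± 0.11 for Slc26a2 and -0.19 ± 0.12 for Car2. Slc9a3 had 9 and 3 UMIs in cluster 8 and 2 and 0 in cluster 4.

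With DESeq2, Car1 alone passed between the clusters, and without the library term no member did (Car1 edgeR adjusted p = 0.0534). The Slc4a4 call was also lost without a filter on low counts, with thinned sums, with doublets kept, without high-mitochondrial barcodes and at clustering resolution 2. The Slc9a2 call was also lost with doublets kept (edgeR adjusted p = 0.0525) and without high-mitochondrial barcodes (log2 0.32, edgeR adjusted p = 0.474). Car4 passed the test along the score inside both clusters and not between them, and Car1 passed between the clusters and along the score inside neither. The r of Car1 with Car4 across thinned single cells was 0.04 in replicate 1 and -0.09 in replicate 2. Slc26a3 and Car4 had an r of 0.33 and 0.36, and Car2 and Car4 of -0.26 and -0.12, again as descriptions.

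Cluster 6 had no name from its markers and carried the highest Car2 of the 10 clusters. It was led by Reg3b, an antimicrobial lectin, and by the gasdermins Gsdmc and Gsdmc2, and held 152 and 62 cells with a median of 5112 UMIs and 8.51% mitochondrial UMIs. Its fit was added after seeing the data and set each of 9 clusters against the mean of the other 8. In cluster 6, 5 of 8 members were higher, where 6.45% of 8354 genes were, and 1 was lower, where 1.3% were.

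Car2 had 844.5 and 1014 CPM in cluster 6, and no other cluster exceeded 634 CPM. The log2 fold change was 1.40 ± 0.15 (SE; edgeR adjusted p = 1.36e-17). After thinning, 69.9% of 133 and 67.8% of 59 of its cells had a Car2 UMI. The exact intervals of the T cell-like Car2 shares given above include these shares. Car4 went the other way, with 59.6 and 109 CPM and a log2 fold change of -2.09 ± 0.23 (SE; edgeR adjusted p = 5.74e-17), a level like that of T cell-like cells (153 and 93.1 CPM). Per Car2 UMI there were 0.0706 and 0.107 Car4 UMIs in cluster 6, against 6.33 and 8.85 in cluster 8 and 4.56 and 9.20 in cluster 4.

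Exchangers in cluster 6 lay between colonocyte-like cells and the other classes. Slc26a2 had 865 and 972 CPM (log2 0.75 ± 0.16, edgeR adjusted p = 0.000136) and Slc26a3 384 and 481 CPM (0.61 ± 0.18, edgeR adjusted p = 0.0141). Slc9a2 had 134 and 133 CPM (1.08 ± 0.24, edgeR adjusted p = 0.000451) and Car1 364 and 417 CPM (1.53 ± 0.18, edgeR adjusted p = 3.57e-15). Slc26a3 UMIs per Slc26a2 UMI were 0.444 and 0.495 in cluster 6, against 1.92 and 1.69 in cluster 8 and 1.30 and 1.72 in cluster 4. Without the library term 2 members passed as higher. In the same fit Slc9a3 had a log2 fold change of 3.86 ± 0.88 in cluster 8 (edgeR adjusted p = 0.000112), where 14.3% of all genes were higher. This rested on the few UMIs given above. Without the 9 and 3 UMIs of cluster 8 itself, Slc9a3 would not have met the filter on low counts. The p-value of Slc9a3 is therefore not read as a test.

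Unnamed clusters 5 and 3 also carried the exchange genes. Cluster 5, led by Dnase1, had a median of 1745.5 UMIs per barcode and 18.5% mitochondrial UMIs, and in the same fit 5 of its 8 members were higher, where 5.83% of all genes were. It held 3062 and 1354 CPM of Car4, 1775 and 828 CPM of Slc26a3 and 1401 and 911 CPM of Slc26a2 in replicates 1 and 2, each lower in replicate 2. Car4 was at log2 3.49 ± 0.15 (SE; edgeR adjusted p = 6.31e-123). Cluster 3, with a median of 1536 UMIs, held 472 and 818 CPM of Car4 and 634 and 490 CPM of Car2, and 4 of 8 members, Car1 among them, were higher, where 2.77% of all genes were. All 6 red-cell markers had UMIs there in both libraries, with summed levels of 13256.8 CPM in replicate 1 and 20.65 CPM in replicate 2. Of 6 B and plasma cell markers, 6 and 5 had UMIs, with 21353.6 and 25.8 CPM in sum and Cd79b at 0 in replicate 2. The part of these cells in the levels of cluster 3 was not tested. Tuft-like cells, at 7 and 2 cells, had no UMI of Car2, Slc9a2, Slc9a3 or Slc4a4.

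**Figure D5:**
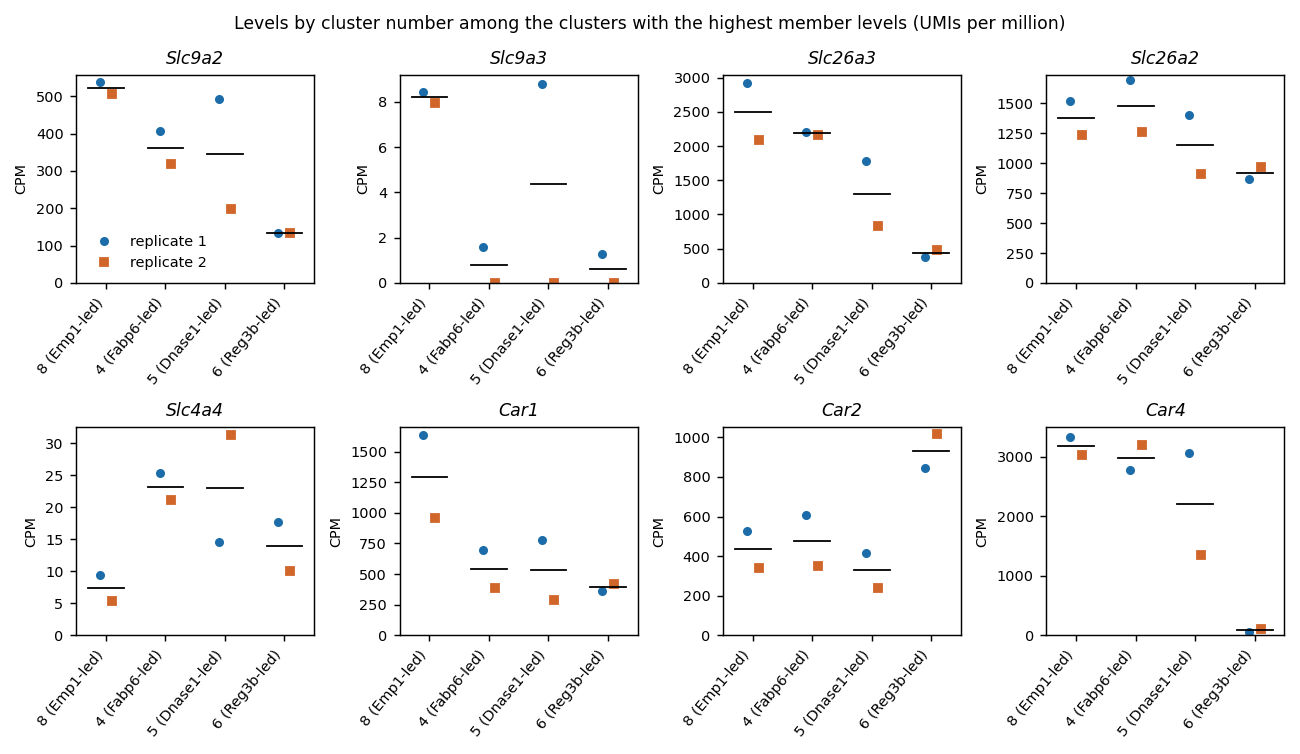
Level of each gene (CPM, linear axis from 0) in clusters 8 and 4, which form the colonocyte-like class, and in the unnamed clusters 5 and 6; circles are replicate 1, squares replicate 2 and bars the mean of 2 libraries. Car1 is highest in cluster 8 (1635 and 954 CPM), Slc4a4 is lower in cluster 8 than in cluster 4, and cluster 6 has the highest Car2 with little Car4.

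Other genes of the pathway were counted by lists in the colonocyte-like contrast, where the median log2 fold change of all 7689 genes was -0.02, and 21.3% of them were higher and 20.1% lower. Of 9 other sodium-proton exchangers, all tested, 4 were higher and none lower, with a median of 0.87. Slc9a4 was at 23.2 and 12.9 CPM in colonocyte-like cells, against 1.80 to 7.83 CPM in the other classes (log2 2.61 ± 0.38, edgeR adjusted p = 3.91e-09). The endosomal exchanger Slc9a9 (1.08 ± 0.29) was also higher.

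Of 17 other anion exchangers and bicarbonate cotransporters, 14 were tested, 3 were higher and 2 lower, with a median of -0.00, counts near the share over all genes. The anion exchangers Slc26a7 (2.45 ± 0.33) and Slc4a2 (1.51 ± 0.21, known from the basolateral membrane) were higher. The related Slc4a11 (1.82 ± 0.50), also among the 3, had 6.01 and 15.2 CPM in colonocyte-like cells, against 1.80 to 6.88 CPM in the other classes. Without colonocyte-like cells Slc4a11 would not have met the filter on low counts, so its call is not read as a test. The sodium-bicarbonate cotransporter Slc4a7 was lower, at 158 and 99.7 CPM in colonocyte-like cells, against 573 and 456 CPM in goblet-like cells and 506 and 436 CPM in deep crypt secretory-like cells (log2 -1.04 ± 0.15, edgeR adjusted p = 1.22e-09). Stem/cycling cells, at 160 and 177 CPM, were also far below those 2 secretory classes. Slc4a1, the red-cell anion exchanger, was lower at -1.70 ± 0.65 (edgeR adjusted p = 0.0279), a call lost with DESeq2 (adjusted p = 0.218). It was also lost without the library term (edgeR adjusted p = 0.0695), with thinned sums (0.288) and without barcodes above 10% mitochondrial UMIs (0.0546). The same held at clustering resolution 2 (log2 -0.36, edgeR adjusted p = 0.91) and with cluster 6 as a further class (0.0805).

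Of 13 other carbonic anhydrases, 10 were tested, 3 were higher and 2 lower, with a median of 0.13, again near the share over all genes. The membrane-bound Car12 (2.76 ± 0.23) and Car9 (2.22 ± 0.20) and the cytosolic Car13 (2.71 ± 0.30) were higher. Car12 had 79.8 and 65.7 CPM in colonocyte-like cells and 71.9 and 32 CPM in stem/cycling cells. Car13 had 46.4 and 25.8 CPM against 14 and 29.9 CPM, so the ranges of Car12 and Car13 overlapped those of stem/cycling cells. Car9 had 91.9 and 86.8 CPM in colonocyte-like cells and 74.8 and 80.5 CPM in cluster 6, against 11.1 to 44.9 CPM in the other classes. Car8, a family member without catalytic activity, was lower at -2.73 ± 0.41, and so was Car14 at -2.74 ± 1.08 (edgeR adjusted p = 0.0331). Car14 had 0 and 1.17 CPM in colonocyte-like cells, against 2.14 to 5.16 CPM in the other classes, so its call rested on few UMIs. The Car14 call was lost without the library term (edgeR adjusted p = 0.0536) and without a filter on low counts (edgeR adjusted p = 0.0532). It was also lost at clustering resolutions 0.5 and 2 and with cluster 6 as a further class (edgeR adjusted p 0.0664 to 0.189).

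Among 18 partners and regulators of the exchangers, all tested, 9 were higher and 4 lower, with a median of 1.04. The calcineurin B homologous proteins, which sodium-proton exchangers need as cofactors, were higher: Chp2 had 79.0 and 68.0 CPM in colonocyte-like cells and at most 12.1 CPM in the other classes (log2 4.85 ± 0.30, edgeR adjusted p = 6.39e-28), and Chp1 had a log2 fold change of 2.85 ± 0.12. The kinases Sgk2 (4.60 ± 0.24) and Sgk1 (3.37 ± 0.18) and the scaffold gene Slc9a3r1 (3.04 ± 0.14) were higher too. The scaffold gene Pdzd3 (3.59 ± 0.57), also among the 9, had 8.59 and 18.8 CPM in colonocyte-like cells, against 0 to 6.88 CPM in the other classes. Without colonocyte-like cells Pdzd3 would not have met the filter on low counts, so its call is not read as a test. Slc9a3r1, which encodes a scaffold of Slc9a3 at the brush border, had 342 and 371 CPM in colonocyte-like cells, where Slc9a3 itself had 4.72 and 3.52 CPM.

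Its relative Slc9a3r2 was lower, with 0 and 1.17 CPM in colonocyte-like cells, against 29.9 and 19.8 CPM in deep crypt secretory-like cells (log2 -4.15 ± 0.86, edgeR adjusted p = 2.84e-05). Goblet-like cells were also low in Slc9a3r2, at 2.61 and 1.72 CPM, and stem/cycling cells had 12 and 12.8 CPM. The kinase Stk39 was lower at -2.29 ± 0.31. Cftr, the anion channel of crypt secretion, had 7.30 and 8.21 CPM in colonocyte-like cells, against 140 and 72.6 CPM in stem/cycling cells (log2 -1.34 ± 0.36, edgeR adjusted p = 0.00142), a call lost when barcodes above 10% mitochondrial UMIs were left out (edgeR adjusted p = 0.123). Goblet-like cells, at 3.91 and 12.1 CPM of Cftr, overlapped the colonocyte-like range, and deep crypt secretory-like cells had 23.4 and 14.4 CPM. In cluster 6, where Car2 was highest, Cftr had 133 and 58.4 CPM.

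The genes whose levels were most like each member over 9 clusters of 2 libraries (18 points, 5137 candidate genes, Pearson r of log2(CPM + 10), a description) were mostly high in colonocyte-like cells. Ces2c, a carboxylesterase, was the closest gene to Slc26a3 (r = 0.98) and to Car4 (0.97) and among the closest 3 of Car1 (0.95), whose closest gene was Dpep1 (0.98). Slc9a2 was closest to Cyp4f14 (0.97), and Slc13a2, a sodium-dicarboxylate cotransporter, was among the closest 3 of both Slc9a2 (0.95) and Slc26a3 (0.98). Slc26a2 was closest to Clcn2, a chloride channel (0.96). Car2 stood apart, with Pgam1 (0.88), the water channel Aqp4 (0.85) and Hao2 (0.83) as its closest genes and an r of only 0.24 with Car4, where Slc26a3 had 0.93 with Car4. Slc4a4 reached 0.81 with Csf2 and Slc9a3 0.82 with Usp18, both at counts too low to rank genes firmly.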

How the data were processed

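Mouse colonic epithelial cells were encapsulated with inDrop and their RNA amplified by CEL-Seq, per the labels' protocols. The authors deposited raw whole-number UMI counts for each gene and barcode. Per the submitters' processing notes, the genome builds were GRCh38 and GRCm38. Aligner, annotation and counting strand: not given in the sources used here, so overlapping and antisense genes are uncertain.

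Barcodes with at least 500 UMIs and 250 genes were kept, which left all 2402. The 5% with the highest simulated-doublet score were left out of each library (87 and 33). Genes were divided into 12752 clustering and 12752 readout genes by the md5 sum of their symbol, with the members and pathway lists always readout and markers always clustering genes. Members and co-regulated clustering genes are not independent, so the class tests depend in part on the clustering. Log-normalized counts of 1500 variable clustering genes were reduced to 30 components and clustered on a graph of 15 neighbours with Leiden at resolution 1 (Python 3.11.15, numpy 2.4.6, scipy 1.17.1, scikit-learn 1.9.0, igraph 0.11.9, leidenalg 0.10.2). A cluster was named where at least 3 markers of a class were in 10% of its cells, its relative score for that class was the highest and at least 0.75, and a marker was among its 15 leading genes.

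Counts were summed per library and class, cluster or tertile. Genes with at least 20 UMIs were tested with edgeR 4.0.16 (R 4.3.3; TMM, quasi-likelihood, Benjamini-Hochberg over all readout genes, threshold 0.05) with library as a block. The block is given by design, since classes of 1 number come from the same library. Residual degrees of freedom were 3 for the classes, 2 for the tertiles and 1 for clusters 8 and 4. Common dispersions were 0.0116, 0.0121 and 0.00621 with the block, against 0.0444, 0.0557 and 0.0503 without it. Over 1430 genes, library differences of the 4 classes correlated at 0.468 to 0.569 in all 6 pairs. Smallest and largest class sums were 468230 and 2329323 UMIs. TMM factors of colonocyte-like sums were 0.776 and 0.913, against 0.835 to 1.26 for the other classes, so fitted fold changes exceed ratios of CPM there. The code was tested on simulated data. DESeq2 1.42.0 was an alternative. Thinning drew 2000 UMIs per cell and left out shallower cells, 19 and 5 colonocyte-like ones. Intervals are exact binomial (95%) and cover counting error only. Named genes were all members, the 3 genes closest to each, and every list gene that passed with an absolute log2 fold change of at least 1, up to 6 per direction and list, apart from 1 that is not reported here. Members, lists and markers were chosen with earlier results of these data known.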

Additional observations from a re-analysis of the deposited data

How the results depend on the processing

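In colonocyte-like cells all 7 tested members stayed higher under every alternative run, while the count of all genes called fell to 2119 with DESeq2, against 3180. The other results are limited by the 2 libraries of 1 mouse and by the few UMIs of Slc9a3 and Slc4a4. Taking single libraries gave no change of sign for a called member. No colonocyte-like cluster had a median under 2500 UMIs, so leaving out such clusters gave no value. Causes of the changes below were not tested.

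Without the replicate block the pairing by library was ignored: members higher and lower were 0 and 0 between tertiles (12 genes called in all, against 192) and 0 and 0 between clusters 8 and 4 (68, against 289), 2 were lower in goblet-like cells (727 genes, against 1342), 947 genes were called in deep crypt secretory-like cells, against 1572, and 2 members were higher in cluster 6. With DESeq2, 779 genes were called in goblet-like, 974 in deep crypt secretory-like and 1469 in stem/cycling cells (against 2312). Members lower between tertiles were 0 with DESeq2 (104 genes called), with sums thinned to the smallest (110 genes; Slc4a4 turned to log2 0.087), with a split at the median score, within cluster 4 (106 genes) and within cluster 8 (111 genes; 2 members higher). Genes called between tertiles were 401 without barcodes above 10% mitochondrial UMIs and 1667 with cluster 6 added.

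Between clusters 8 and 4, members lower were 0 with DESeq2 (1 higher, 86 genes), with no filter on low counts, with thinned sums, with no doublet filter (1 higher, 183 genes), without high-mitochondrial barcodes (1 higher, 160 genes; Car4 -0.075) and at resolution 2 (Car4 -0.023). In goblet-like cells 1 member was higher and 2 lower with no doublet filter (Slc26a3 0.007, Car4 0.373) and 2 were lower at resolution 2 (Slc26a2 0.066, Car4 0.016). In stem/cycling cells resolution 0.5 gave 3 higher and 1 lower (Slc9a2 1.04, Slc26a3 0.009, Car1 0.86, Car2 0.92), resolution 2 gave 1173 genes called (Slc4a4 -0.14), and leaving out high-mitochondrial barcodes gave Slc9a2 0.38 and Car2 0.30. Against all other epithelial cells summed, the share of higher calls was 47.9% in goblet-like cells, against 60.8%, and the median of all genes in colonocyte-like cells moved to -0.12.

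Mean shares of colonocyte-like cells with a UMI depend on depth. At 4000 UMIs per cell they were 74.9% for Slc9a2, 98.2% for Slc26a3, 96.4% for Slc26a2, 70.2% for Car1, 69.3% for Car2 and 93.5% for Car4. Unthinned they were 82.4% for Slc9a2, 2.49% for Slc9a3, 98.0% for Slc26a3, 96.4% for Slc26a2, 9.51% for Slc4a4, 67.3% for Car1, 71.0% for Car2 and 93.2% for Car4.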
